A study of Danio rerio with 21 samples.

Results

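The larvae described here are zebrafish (*Danio rerio*, strain EK) that lack both maternal and zygotic *pomgnt2*, followed between 5 and 10 days post fertilization (dpf). Such maternal-zygotic knockouts (MZKO) carry frameshift alleles on both chromosomes and came from ZKO females, which are homozygous for the mutation themselves, crossed with heterozygous males. Their genotype is -/- at both ages. Of the 21 pools of whole larvae in the series, in 7 groups of 3, the 6 MZKO pools were chosen by genotype and age: 3 at 10 dpf and 3 at 5 dpf. Each pool held RNA from several larvae, and each larva entered at 1 age only, so the comparison is between different fish. The 6 MHet pools, +/- siblings from the same crosses that also lack maternal *pomgnt2* function, are given beside them at 10 dpf and 5 dpf. The loss is in every cell from fertilization on, through a single line of fish made with CRISPR, and the MHet fish carry the same mutant alleles on 1 chromosome.

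All 10 dpf pools were in 1 batch and all 5 dpf pools in another, as the labels give it, so age and batch cannot be told apart in any change described below. The 10 dpf larvae were housed apart by genotype until sampling, and the hour of sampling is not given in the sources used here. The paper kept embryos in dishes at first and the 10 dpf larvae on its housing system, so housing coincides with age too. DNA was taken from live larvae shortly before 5 dpf, so the time since that step also differed between the ages. A batch shift that is equal in both genotypes cancels in the difference between the age change of MZKO and that of MHet larvae, which was tested for every gene. Housing and genotype coincide in that difference at 10 dpf and cannot be told apart. Whole larvae were sequenced, so fewer cells of a type and less RNA per cell cannot be told apart either.

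Loss of POMGNT2 is known from people as a cause of dystroglycanopathy, a group of muscular dystrophies with eye and brain involvement. The enzyme adds a sugar to O-linked mannose on alpha-dystroglycan, the step from which the long matriglycan chain is later built. Matriglycan binds laminin and so ties the muscle fiber membrane, through dystroglycan and dystrophin, to the basement membrane. Between the ages compared, a zebrafish larva uses up its yolk, starts to feed and swims freely, while its muscle, gut, liver, eye and brain go on growing.

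Between 17165950 and 22151836 reads per MZKO pool were counted on genes at 10 dpf, against 18566356 to 20448552 at 5 dpf. A gene's level is given in CPM, its count scaled to the size of the library after TMM normalization, and 3 counts, taken as the floor, stood at 0.135 to 0.172 CPM at 10 dpf and 0.138 to 0.152 CPM at 5 dpf. CPM are not per length, so levels are compared between samples of a gene and not between genes. Of 26 markers of muscle, heart, liver, pancreas, gut, blood, lens, photoreceptors, neurons, myelin, skin, cartilage, bone, immune cells, thymus and germ cells, 25 were counted in all 6 MZKO pools. The bone marker *bglap* was at 0 in each of them. The first principal component held 51.2% of the variance and separated the ages. The second held 12.3% and separated MZKO from MHet pools at 10 dpf. The median SD of log2 CPM between replicate pools was 0.219 in MZKO at 10 dpf, against 0.149 at 5 dpf.

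The transcript of *pomgnt2* (LL0000022302) was still made in the mutants. It stood at 17.8, 12.8 and 19.7 CPM in the MZKO 10 dpf pools, against 18.8, 18.5 and 18.7 CPM in the MZKO 5 dpf pools, and the ages overlapped. Its log2 fold change of -0.15 ± 0.15 (SE, adjusted p = 0.43) missed the threshold. The MHet siblings had 18.3, 19.6 and 15.2 CPM in the MHet 10 dpf pools, against 14.1, 14.1 and 17.7 CPM in the MHet 5 dpf pools.

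Of 24738 genes tested with edgeR's quasi-likelihood test in 1 fit of the 12 MZKO and MHet pools, 4657 (18.8%) were called between MZKO larvae at 10 and 5 dpf. Genes were called where the Benjamini-Hochberg adjusted p was below 0.01 and the log2 fold change passed 0.7 in either direction. Fold changes are 10 dpf over 5 dpf throughout. Of these genes, 1885 (7.62% of those tested) rose and 2772 (11.2%) fell. The counts given below for gene lists are to be read beside these shares. List counts and medians of MZKO and MHet larvae given side by side are no test of a difference between the genotypes. The 3 pools of each age did not overlap in 54.1% of tested genes. In MHet larvae 3453 genes (14.0%) were called, of which 1721 (6.96%) rose and 1732 (7.00%) fell, and pools of the ages did not overlap in 50.0%. The genes that rose in both genotypes numbered 879, which were 46.6% of those that rose in MZKO and 51.1% of those that rose in MHet larvae. Those that fell in both numbered 925, or 33.4% and 53.4% of each list. With library sizes alone for scaling, 1486 genes were called higher and 3315 lower in MZKO, and 1155 higher and 2595 lower in MHet larvae. That scaling shifted the median of all genes by -0.084 in MZKO and by -0.14 in MHet larvae, on the log2 scale.

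**Figure D1:**
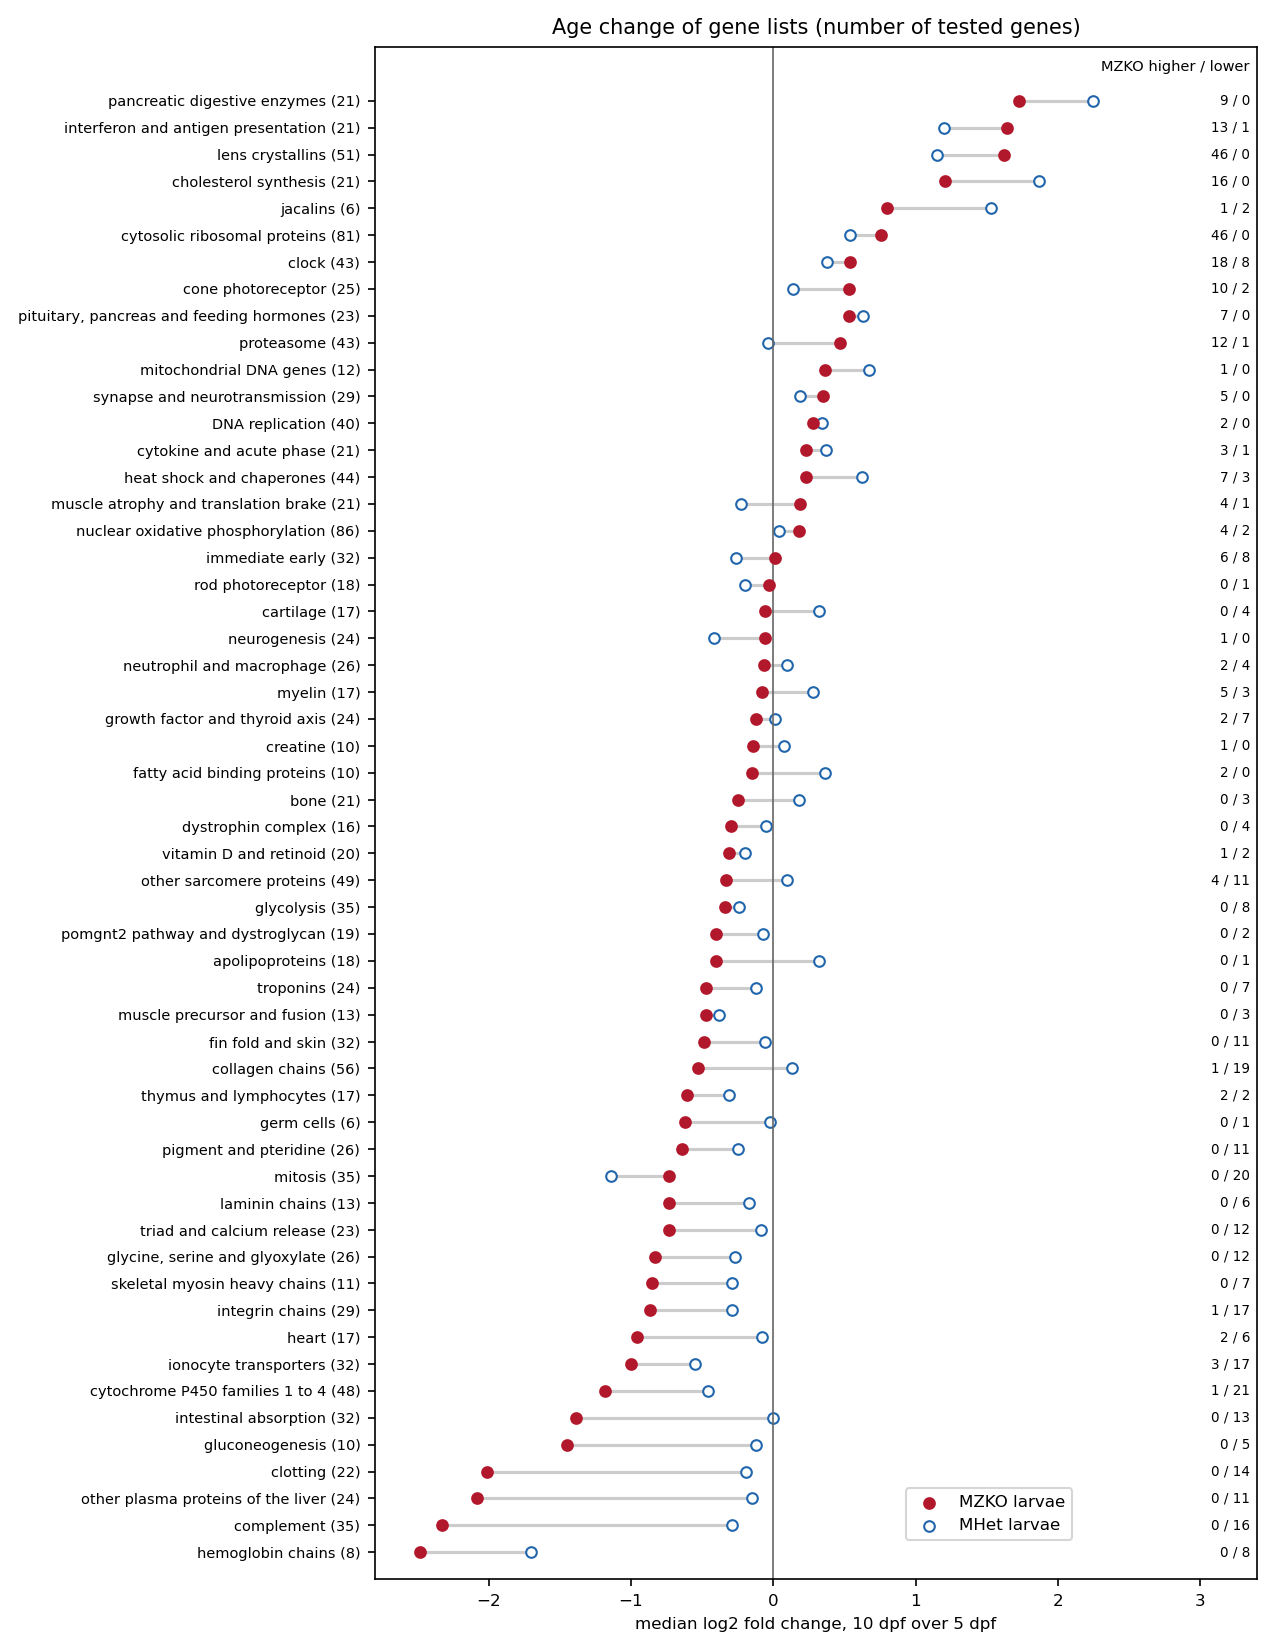
Median log2 fold change of 10 dpf over 5 dpf in each gene list (x axis), for MZKO larvae (filled circles, 3 pools per age) and MHet larvae (open circles, 3 pools per age), with the numbers of MZKO genes called higher and lower at the right. In MZKO larvae the lists of complement (-2.33) and hemoglobin (-2.48) lay farthest to the left, and those of pancreatic enzymes (1.73) farthest to the right.

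Of 19 tested genes that encode dystroglycan and the enzymes of its modification, 2 fell in MZKO larvae, a share near that of all tested genes, with a median log2 fold change of -0.40, against -0.019 over all tested genes. The kinase gene *pomk*, whose product phosphorylates the mannose after POMGNT2 has acted, stood at 5.92, 4.06 and 4.98 CPM in MZKO larvae at 10 dpf, against 11.1, 8.40 and 12.9 CPM in MZKO larvae at 5 dpf, a log2 fold change of -1.10 ± 0.19 (SE, adjusted p = 0.00015). The xylosyltransferase gene *tmem5* had a log2 fold change of -0.91 ± 0.21 (SE, adjusted p = 0.0019), a call lost without MZKO 10 dpf pool 3 (log2 fold change -0.70, adjusted p = 0.0077) and MZKO 5 dpf pool 1 (log2 fold change -0.76, adjusted p = 0.016). Without MZKO 10 dpf pool 1, 4 genes of the pathway were called lower. Dystroglycan itself, *dag1*, was at 92.5, 78.5 and 75.1 CPM in the MZKO 10 dpf pools, against 106, 113 and 113 CPM in the MZKO 5 dpf pools, and its log2 fold change of -0.43 ± 0.088 (SE, adjusted p = 0.00083) was under the fold threshold. Each 10 dpf pool was lower than each 5 dpf pool. It stood at 94.2, 94.7 and 101 CPM in MHet larvae at 10 dpf, against 87.6, 88.5 and 84.9 CPM in MHet larvae at 5 dpf. The difference between the genotypes in its age change was -0.58 ± 0.12 (SE, adjusted p = 0.0078), also under the fold threshold. No gene of the pathway was called in the difference by edgeR or DESeq2, and 4 had an unadjusted p under 0.05.

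In the dystrophin complex, which anchors dystroglycan to actin inside the fiber, 4 of 16 tested genes fell in MZKO larvae, and all of them were sarcoglycans, the membrane partners of dystroglycan. The delta sarcoglycan gene *sgcd* was at 31.5, 36.9 and 35.3 CPM in MZKO larvae at 10 dpf, against 84.7, 79.5 and 75.4 CPM in MZKO larvae at 5 dpf, a log2 fold change of -1.21 ± 0.12 (SE, adjusted p = 9.8e-07). The gamma sarcoglycan gene *sgcg* was at 30.2, 27.1 and 35.3 CPM in the MZKO 10 dpf pools, against 116, 118 and 76.3 CPM in the MZKO 5 dpf pools, a log2 fold change of -1.74 ± 0.21 (SE, adjusted p = 5.9e-05). Both were lower in every 10 dpf pool than in any 5 dpf pool, as were *sgca* (log2 fold change -1.04) and *sgcb* (log2 fold change -0.87). Dystrophin (*dmd*) was not called, at 53.1, 48.9 and 38.0 CPM in MZKO larvae at 10 dpf, against 58.9, 55.2 and 61.0 CPM in MZKO larvae at 5 dpf (log2 fold change -0.32 ± 0.14 SE, adjusted p = 0.068), and the pools of its relative utrophin (*utrn*) overlapped at 66.2, 59.4 and 68.0 CPM in the MZKO 10 dpf pools, against 63.1, 59.5 and 72.7 CPM in the MZKO 5 dpf pools. For *sgcd* the levels were 47.9, 45.8 and 42.4 CPM in the MHet 10 dpf pools, against 37.1, 53.1 and 52.7 CPM in the MHet 5 dpf pools, with overlap between the ages, and the age change differed between genotypes by -1.14 ± 0.17 (SE, adjusted p = 0.00092). The median of the list was -0.30 in MZKO and -0.048 in MHet larvae, and 7 of its genes were called lower in MZKO without MZKO 10 dpf pool 2.

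Muscle myosin heavy chains, the motor proteins of the thick filament, fell. Of 11 tested genes, 7 fell in MZKO larvae, with a median log2 fold change of -0.85. Summed over the family, they took 23698, 24562 and 19085 CPM in the MZKO 10 dpf pools, against 51361, 48735 and 60696 CPM in the MZKO 5 dpf pools. The fast chain *myhz1.1* was at 9727, 9185 and 7523 CPM in MZKO larvae at 10 dpf, against 20130.5, 19745 and 24889.8 CPM in MZKO larvae at 5 dpf (log2 fold change -1.29 ± 0.14 SE, adjusted p = 2.5e-06). The fast chain *myhz1.2* was at 5556, 5010.1 and 3944 CPM in the MZKO 10 dpf pools, against 14241, 13245 and 17141 CPM in the MZKO 5 dpf pools (log2 fold change -1.62 ± 0.15 SE, adjusted p = 3.7e-07). No 10 dpf pool reached the level of a 5 dpf pool in either of them. The slow chain *smyhc1* was not called, at 866, 886 and 795 CPM in MZKO larvae at 10 dpf, against 882, 873 and 1151 CPM in MZKO larvae at 5 dpf, where the ages overlapped. The summed level was 45296, 34344 and 45057 CPM in the MHet 10 dpf pools, against 58101, 63221 and 55291 CPM in the MHet 5 dpf pools, and none of the genes were called by edgeR or DESeq2 in MHet larvae (7 had an unadjusted p under 0.05), where the median log2 fold change was -0.29. The difference in age change for *myhz1.1* was -0.79 ± 0.20 (SE, adjusted p = 0.017), which missed the threshold but passed it without MHet 10 dpf pool 2 (-0.92, adjusted p = 0.0048). Over the list the difference was below 0 in all 11 genes. It was called lower in 1 gene by edgeR and called in 5 by DESeq2, and 9 had an unadjusted p under 0.05. The fast chains are near-identical copies and the treatment of reads that match several places is not given, so the split between them is uncertain.

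**Figure D2:**
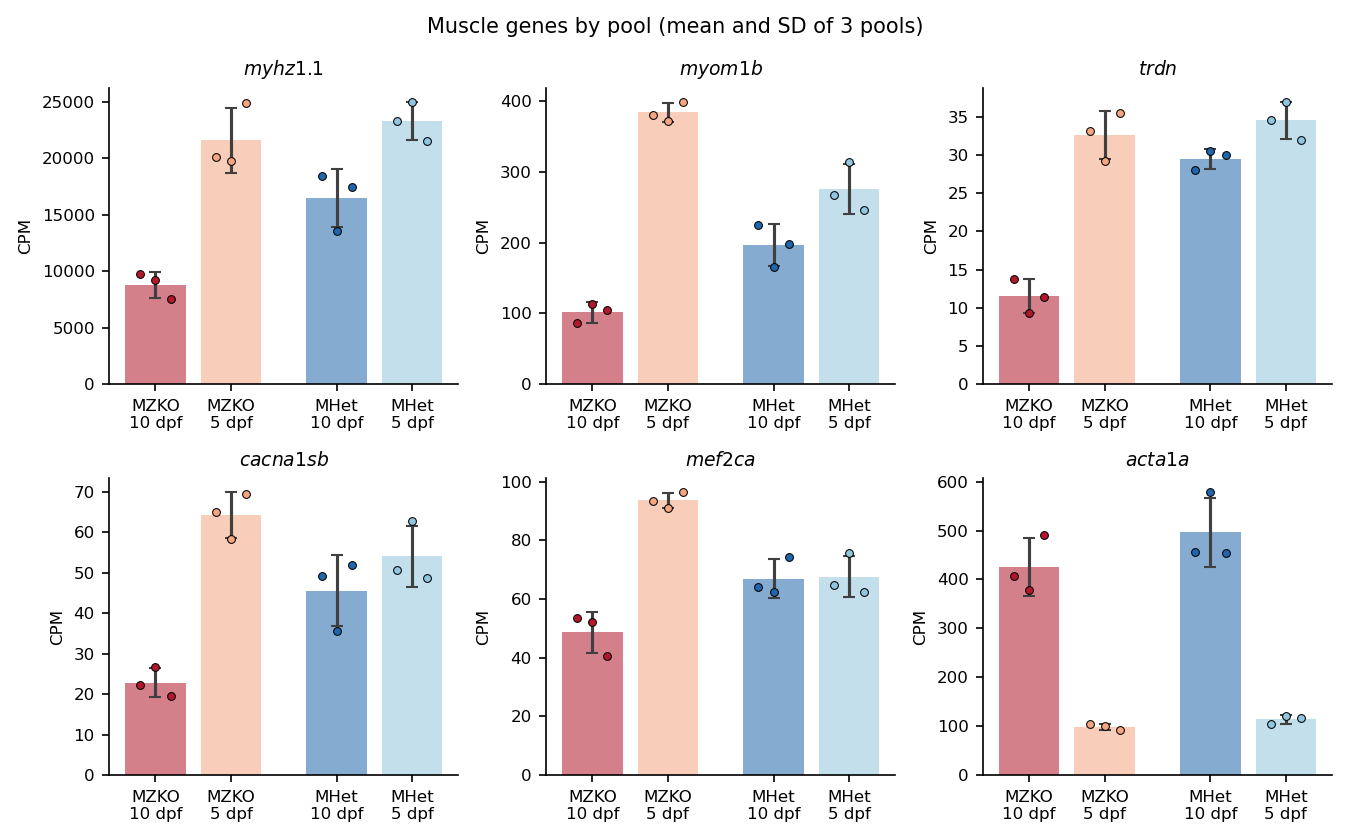
CPM per pool (y axis, linear from 0) of 6 muscle genes in MZKO and MHet larvae, with the 10 dpf pools left of the 5 dpf pools of the same genotype, points for single pools and bars for the means with error bars of 1 SD (n = 3). In MZKO larvae *myhz1.1*, *myom1b*, *trdn*, *cacna1sb* and *mef2ca* stood lower in each 10 dpf pool than in any 5 dpf pool, and *acta1a* stood higher.

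Among other sarcomere proteins, 4 of 49 tested genes rose and 11 fell in MZKO larvae, where 7.62% and 11.2% of all tested genes did. The share that rose was near that of all tested genes. Myomesin 1b (*myom1b*), which cross-links myosin filaments at the middle of the sarcomere, was at 85.8, 114 and 105 CPM in the MZKO 10 dpf pools, against 380.3, 372 and 399 CPM in the MZKO 5 dpf pools, a log2 fold change of -1.92 ± 0.13 (SE, adjusted p = 2e-08). Its paralog *myom1a* was at 193, 246 and 188 CPM in MZKO larvae at 10 dpf, against 507, 469 and 553 CPM in MZKO larvae at 5 dpf (log2 fold change -1.29 ± 0.13 SE, adjusted p = 1.1e-06). The myospryn gene *cmya5* was at 9.30, 12.6 and 6.66 CPM in the MZKO 10 dpf pools, against 29.4, 26.8 and 31.2 CPM in the MZKO 5 dpf pools (log2 fold change -1.62 ± 0.16 SE, adjusted p = 1.4e-06). In all 3 the age change was lower in MZKO than in MHet larvae. The difference between genotypes was -1.43 ± 0.18 (SE, adjusted p = 0.00031) for *myom1b*, -1.18 ± 0.18 (SE, adjusted p = 0.0011) for *myom1a* and -1.58 ± 0.23 (SE, adjusted p = 0.0008) for *cmya5*. Levels of *myom1b* were 225, 166 and 198 CPM in MHet larvae at 10 dpf, against 267, 314 and 246 CPM in MHet larvae at 5 dpf, so the MZKO pools stood above the MHet pools at 5 dpf and below them at 10 dpf. *mybpha*, a myosin binding protein gene, fell in both genotypes (log2 fold change -2.40 ± 0.18 SE, adjusted p = 5.6e-08 in MZKO, log2 fold change -1.50 ± 0.17 SE, adjusted p = 4.6e-06 in MHet).

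Against this, skeletal actin *acta1a* rose in both genotypes. It was at 406, 379 and 491 CPM in MZKO larvae at 10 dpf, against 105, 99.4 and 92.7 CPM in MZKO larvae at 5 dpf, a log2 fold change of 2.10 ± 0.12 (SE, adjusted p = 3.5e-09). Levels were 457, 578 and 454 CPM in the MHet 10 dpf pools, against 104, 121 and 117 CPM in the MHet 5 dpf pools (log2 fold change 2.12 ± 0.12 SE, adjusted p = 3e-09). The methyltransferase gene *smyd1b*, needed to fold myosin in growing zebrafish muscle, also rose (log2 fold change 1.06 ± 0.11 SE, adjusted p = 2.1e-06). Troponins are the calcium switch of the thin filament, and their list also held the kinase gene *tnni3k*. Of 24 genes in this list 7 fell, and this count was between 4 and 6 with each MZKO pool left out in turn, lowest without MZKO 10 dpf pool 1 or MZKO 5 dpf pool 2. The troponin T gene *tnnt2c* had a log2 fold change of -2.16 ± 0.24 (SE, adjusted p = 3.1e-06).

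The triad, where the muscle action potential triggers calcium release, had 12 genes lower of 23, with a median log2 fold change of -0.73 in MZKO and -0.086 in MHet larvae. Triadin (*trdn*), which holds the release complex together, was at 13.8, 9.33 and 11.4 CPM in the MZKO 10 dpf pools, against 33.1, 29.2 and 35.4 CPM in the MZKO 5 dpf pools, a log2 fold change of -1.49 ± 0.13 (SE, adjusted p = 2.2e-07). It was at 28.0, 30.5 and 30.0 CPM in MHet larvae at 10 dpf, against 34.6, 36.9 and 32.0 CPM in MHet larvae at 5 dpf, and the difference in age change was -1.26 ± 0.18 (SE, adjusted p = 0.00059). The voltage sensor gene *cacna1sb* was at 22.2, 26.6 and 19.5 CPM in MZKO larvae at 10 dpf, against 64.9, 58.3 and 69.5 CPM in MZKO larvae at 5 dpf (log2 fold change -1.50 ± 0.15 SE, adjusted p = 2.3e-06). Calsequestrin (*casq1b*), the calcium store protein, was at 48.6, 52.4 and 46.7 CPM in the MZKO 10 dpf pools, against 98.9, 98.4 and 119.9 CPM in the MZKO 5 dpf pools (log2 fold change -1.10 ± 0.10 SE, adjusted p = 3.9e-07), and the calcium pump gene *atp2a1* at 3813, 4087 and 3522 CPM in MZKO larvae at 10 dpf, against 6491, 6754 and 7496 CPM in MZKO larvae at 5 dpf (log2 fold change -0.86 ± 0.11 SE, adjusted p = 1.1e-05). In all 4 genes every 10 dpf pool was below every 5 dpf pool. A calcium channel gamma subunit gene, *cacng6a*, had the smallest p of the genes with a symbol that fell, at 3.34, 2.35 and 2.99 CPM in the MZKO 10 dpf pools, against 19.5, 20.5 and 17.2 CPM in the MZKO 5 dpf pools (log2 fold change -2.71 ± 0.16 SE, adjusted p = 6.4e-09), and did so in MHet larvae as well (log2 fold change -2.41 ± 0.16 SE, adjusted p = 1.8e-08).

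Among muscle regulators some fell and some rose. The transcription factor gene *mef2ca* was at 53.4, 52.0 and 40.6 CPM in MZKO larvae at 10 dpf, against 93.5, 91.0 and 96.3 CPM in MZKO larvae at 5 dpf, a log2 fold change of -0.94 ± 0.11 (SE, adjusted p = 4.8e-06), with a difference between genotypes of -0.93 ± 0.16 (SE, adjusted p = 0.002). The myogenic factor *myod1* fell in both genotypes (log2 fold change -1.24 ± 0.16 SE, adjusted p = 1.4e-05 in MZKO, log2 fold change -0.99 ± 0.16 SE, adjusted p = 0.00017 in MHet larvae). Among 21 genes of muscle wasting and brakes on translation, 4 rose and 1 fell in MZKO larvae. Over this list 13 genes had a log2 fold change above 0 and 8 below, with a median of 0.19. Its summed level overlapped between the ages, at 1372, 1375 and 774 CPM in the MZKO 10 dpf pools, against 956, 1019 and 899 CPM in the MZKO 5 dpf pools. The genes given next are among those that rose. The cell cycle inhibitor gene *cdkn1a* was at 14.3, 13.2 and 16.9 CPM in the MZKO 10 dpf pools, against 6.01, 5.21 and 4.73 CPM in the MZKO 5 dpf pools (log2 fold change 1.48 ± 0.15 SE, adjusted p = 1.1e-06) and rose in MHet larvae too (log2 fold change 1.50 ± 0.15 SE, adjusted p = 1.2e-06). The ubiquitin ligase gene *trim63b*, known for degrading sarcomere proteins, was at 50.7, 50.7 and 37.4 CPM in MZKO larvae at 10 dpf, against 23.8, 26.2 and 28.8 CPM in MZKO larvae at 5 dpf, a log2 fold change of 0.82 ± 0.15 (SE, adjusted p = 0.00041). Its levels were 49.5, 46.3 and 34.1 CPM in the MHet 10 dpf pools, against 45.4, 50.1 and 39.6 CPM in the MHet 5 dpf pools, so the MZKO pools at 5 dpf were the lowest of the 4 groups, and the difference of 0.87 ± 0.21 (SE, adjusted p = 0.015) missed the threshold but passed it without MZKO 10 dpf pool 3 (adjusted p = 0.0026). The number of wasting genes called higher was between 2 and 8 with each MZKO pool left out, highest without MZKO 10 dpf pool 3.

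Matrix receptors fell broadly. Integrin chains are the cell surface receptors for laminin, fibronectin and collagen, and their list also held *itgb1bp1*, the gene of an integrin binding protein. Of 29 tested genes in this list 17 fell in MZKO larvae, with a median of -0.87, against 2 and a median of -0.29 in MHet larvae. The one that rose, *itga6b* (log2 fold change 1.17 ± 0.27 SE, adjusted p = 0.0059), lost its call with any MZKO pool but 10 dpf pool 1 left out, at adjusted p-values of 0.011 to 0.026. The beta chain *itgb1b* was at 5.10, 4.24 and 3.20 CPM in the MZKO 10 dpf pools, against 18.5, 19.0 and 16.4 CPM in the MZKO 5 dpf pools, a log2 fold change of -2.09 ± 0.17 (SE, adjusted p = 9.6e-08). It was at 11.4, 9.25 and 12.5 CPM in MHet larvae at 10 dpf, against 13.7, 13.5 and 12.9 CPM in MHet larvae at 5 dpf, and the age change differed by -1.82 ± 0.23 (SE, adjusted p = 0.00031). The other beta 1 chain, *itgb1a*, was at 30.8, 31.1 and 24.8 CPM in MZKO larvae at 10 dpf, against 66.7, 65.6 and 66.4 CPM in MZKO larvae at 5 dpf (log2 fold change -1.20 ± 0.11 SE, adjusted p = 2.9e-07, difference -0.89 ± 0.15 SE, adjusted p = 0.0019). The alpha 4 chain *itga4* was at 6.82, 6.64 and 4.56 CPM in the MZKO 10 dpf pools, against 15.3, 17.2 and 19.6 CPM in the MZKO 5 dpf pools (log2 fold change -1.53 ± 0.18 SE, adjusted p = 3.9e-06, difference -1.46 ± 0.24 SE, adjusted p = 0.0019). In all 3 genes MZKO was the highest group at 5 dpf and the lowest at 10 dpf. The laminin receptor gene *bcam* behaved alike, at 44.6, 47.9 and 46.9 CPM in MZKO larvae at 10 dpf, against 121, 129 and 118 CPM in MZKO larvae at 5 dpf (log2 fold change -1.40 ± 0.09 SE, adjusted p = 1.1e-08, difference -0.89 ± 0.12 SE, adjusted p = 0.00061).

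Of 13 laminin chains, which form the mesh of the basement membrane, 6 fell, with a median log2 fold change of -0.73 in MZKO and -0.17 in MHet larvae. Of 56 genes in the collagen list 19 fell, with a median of -0.53 in MZKO and 0.13 in MHet larvae. The list also held *col4a3bpa* and *col4a3bpb*, which do not encode collagen chains. The basement membrane chain *col4a5* was at 75.5, 83.1 and 103 CPM in the MZKO 10 dpf pools, against 254, 215 and 304 CPM in the MZKO 5 dpf pools (log2 fold change -1.56 ± 0.13 SE, adjusted p = 1.1e-07). The collagen VI chain *col6a1*, part of the mesh around muscle fibers, was at 17.7, 24.3 and 30.2 CPM in MZKO larvae at 10 dpf, against 71.6, 59.6 and 69.0 CPM in MZKO larvae at 5 dpf (log2 fold change -1.47 ± 0.15 SE, adjusted p = 2.6e-06). *col19a1* was at 30.8, 32.5 and 22.8 CPM in the MZKO 10 dpf pools, against 54.7, 57.8 and 68.3 CPM in the MZKO 5 dpf pools, a log2 fold change of -1.07 ± 0.12 (SE, adjusted p = 4.3e-06), while it was at 48.1, 39.3 and 42.2 CPM in the MHet 10 dpf pools, against 42.9, 43.1 and 44.6 CPM in the MHet 5 dpf pools, with overlap. Its age change differed between the genotypes by -1.06 ± 0.17 (SE, adjusted p = 0.0017). In the 3 chains the 10 dpf pools of MZKO larvae lay below all their 5 dpf pools. The single chain that rose, *col24a1*, did so in both genotypes (log2 fold change 1.14 ± 0.15 SE, adjusted p = 3.7e-05 in MZKO, log2 fold change 1.07 ± 0.15 SE, adjusted p = 9.5e-05 in MHet larvae), and 2 rose without MZKO 10 dpf pool 1. The caveolar coat gene *cavin1b* fell as well, at 21.1, 27.6 and 24.6 CPM in MZKO larvae at 10 dpf, against 72.3, 67.5 and 69.7 CPM in MZKO larvae at 5 dpf (log2 fold change -1.52 ± 0.10 SE, adjusted p = 2.5e-08, difference -0.99 ± 0.15 SE, adjusted p = 0.00088).

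Blood genes showed some of the largest falls. All 8 tested hemoglobin chains were called lower in MZKO larvae, with a median log2 fold change of -2.48. By their names all 8 are embryonic chains. The adult alpha and beta chains and *hbbe3* did not pass the filter on counts and were not tested. The summed level of the hemoglobin list was 289.8, 390.2 and 463 CPM in the MZKO 10 dpf pools, against 2468, 1623 and 2347 CPM in the MZKO 5 dpf pools. The embryonic alpha chain *hbae1.1* was at 85.3, 111 and 135 CPM in the MZKO 10 dpf pools, against 901, 615 and 967 CPM in the MZKO 5 dpf pools, a log2 fold change of -2.90 ± 0.26 (SE, adjusted p = 9.2e-06). It was 7.49-fold lower at 10 dpf, with no overlap. The beta chain *hbbe1.3* was at 36.0, 50.4 and 81.2 CPM in MZKO larvae at 10 dpf, against 382, 234 and 431 CPM in MZKO larvae at 5 dpf (log2 fold change -2.64 ± 0.38 SE, adjusted p = 0.00056). In MHet larvae 6 of the 8 fell, with a median of -1.70 and summed levels of 859, 635 and 1062 CPM in the MHet 10 dpf pools, against 2527, 2855 and 2856 CPM in the MHet 5 dpf pools. The difference for *hbae1.1* was -1.06 ± 0.34 (SE, adjusted p = 0.066), or -1.27 without MHet 10 dpf pool 2 (adjusted p = 0.0097), and with all pools no chain was called in it by edgeR, against 1 by DESeq2 and 3 at an unadjusted p under 0.05. The globin genes are close copies, so reads may be split between them. Ferroportin (*slc40a1*), the iron exporter, also fell in both genotypes (log2 fold change -1.65 ± 0.11 SE, adjusted p = 2.2e-08 in MZKO, log2 fold change -1.46 ± 0.11 SE, adjusted p = 8.2e-08 in MHet larvae).

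In the heart list 6 of 17 genes fell and 2 rose in MZKO larvae, with a median of -0.96. In MHet larvae 2 rose and 1 fell, with a median of -0.077. The difference between genotypes was called lower in 3 of them by edgeR and called in 4 by DESeq2, and 10 had an unadjusted p under 0.05. Some genes of the heart list, such as *tnni1b* and *ttn.2*, were also counted in the troponin or sarcomere lists. The light chain gene *myl4* was at 3.52, 2.63 and 5.03 CPM in the MZKO 10 dpf pools, against 19.4, 18.3 and 17.6 CPM in the MZKO 5 dpf pools (log2 fold change -2.30 ± 0.19 SE, adjusted p = 1.7e-07). The cardiac actin *actc1c* went the other way, at 194, 224 and 285 CPM in MZKO larvae at 10 dpf, against 79.4, 80.9 and 78.3 CPM in MZKO larvae at 5 dpf (log2 fold change 1.56 ± 0.14 SE, adjusted p = 3.9e-07), and did so in MHet larvae too (log2 fold change 1.53 ± 0.14 SE, adjusted p = 6.6e-07). The transcription factor *klf2b*, which endothelial cells raise under blood flow, was at 12.6, 13.2 and 11.4 CPM in the MZKO 10 dpf pools, against 58.4, 49.2 and 49.5 CPM in the MZKO 5 dpf pools, a log2 fold change of -2.08 ± 0.13 (SE, adjusted p = 7.9e-09), with a fall in MHet larvae too (log2 fold change -2.20 ± 0.13 SE, adjusted p = 3.6e-09).

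Genes of the liver's secreted proteins fell in MZKO larvae. Of 35 complement genes, 16 fell, and of 22 clotting genes 14 fell. The medians were -2.33 and -2.01 in MZKO, against -0.29 and -0.19 in MHet larvae. Transferrin (*tfa*), the iron carrier of plasma, was at 61.0, 36.4 and 76.1 CPM in MZKO larvae at 10 dpf, against 509, 739 and 421 CPM in MZKO larvae at 5 dpf, a log2 fold change of -3.26 ± 0.40 (SE, adjusted p = 0.00024). It was at 444, 244 and 609 CPM in MHet larvae at 10 dpf, against 612, 658 and 667 CPM in MHet larvae at 5 dpf, the nearest pools of the MHet ages being almost level. Prothrombin (*f2*) was at 9.08, 5.04 and 8.76 CPM in the MZKO 10 dpf pools, against 42.7, 63.3 and 42.7 CPM in the MZKO 5 dpf pools (log2 fold change -2.69 ± 0.45 SE, adjusted p = 0.0014), and the fibrinogen chain *fgb* at 23.7, 15.7 and 22.3 CPM in MZKO larvae at 10 dpf, against 121, 251 and 94.8 CPM in MZKO larvae at 5 dpf (log2 fold change -2.92 ± 0.45 SE, adjusted p = 0.00095). In these genes each 10 dpf pool of MZKO larvae was below each 5 dpf pool. The serpin gene *serpina7* was at 4.15, 5.38 and 4.46 CPM in the MZKO 10 dpf pools, against 23.4, 37.9 and 13.9 CPM in the MZKO 5 dpf pools (log2 fold change -2.43 ± 0.32 SE, adjusted p = 0.00015).

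The spread between pools was wide for these genes. Summed over the complement list, levels were 188, 166 and 209 CPM in the MZKO 10 dpf pools, against 628, 1340.3 and 451 CPM in the MZKO 5 dpf pools. In the siblings they were 506, 309 and 913 CPM in the MHet 10 dpf pools, against 646, 680.1 and 694 CPM in the MHet 5 dpf pools. The MHet pool 2 at 10 dpf was the lowest of its group and the nearest to the MZKO pools. Without MZKO 10 dpf pool 2, 4 complement, 3 clotting and 5 other plasma protein genes were called lower in MZKO, against 16, 14 and 11 with it. In the test of the difference between genotypes the medians were -1.97 for complement, -1.77 for clotting and -1.77 for other plasma proteins. None of these genes were called by edgeR, although 21, 15 and 17 of them had an unadjusted p under 0.05, and DESeq2 called 9, 5 and 7. Without MHet 10 dpf pool 2, calls were made in 2 complement, 7 clotting and 6 other plasma protein genes. For *tfa* the difference was -2.69 ± 0.53 (SE, adjusted p = 0.016), and it passed the threshold without MHet 10 dpf pool 2 (-2.97, adjusted p = 0.0035).

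Pancreatic digestive enzymes rose. Of 21 tested genes 9 rose in MZKO larvae, with a median of 1.73, and in MHet larvae 15 rose, with a median of 2.25. Summed levels were 3636, 1804 and 5005 CPM in the MZKO 10 dpf pools, against 1284, 1024 and 692 CPM in the MZKO 5 dpf pools. They were 9627, 8241 and 10599.9 CPM in the MHet 10 dpf pools, against 2176, 1016 and 2529 CPM in the MHet 5 dpf pools, and in both genotypes every 10 dpf pool was above every 5 dpf pool. The elastase gene *ela2l* was at 400.2, 255 and 553 CPM in MZKO larvae at 10 dpf, against 92.6, 73.6 and 46.5 CPM in MZKO larvae at 5 dpf (log2 fold change 2.51 ± 0.39 SE, adjusted p = 0.00098, difference between genotypes 0.30 ± 0.53 SE, adjusted p = 0.76). Without MZKO 5 dpf pool 2 or MZKO 5 dpf pool 3, 2 of the enzymes were called. No enzyme was called in the difference between genotypes, by edgeR, by DESeq2 or at an unadjusted p under 0.05.

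**Figure D3:**
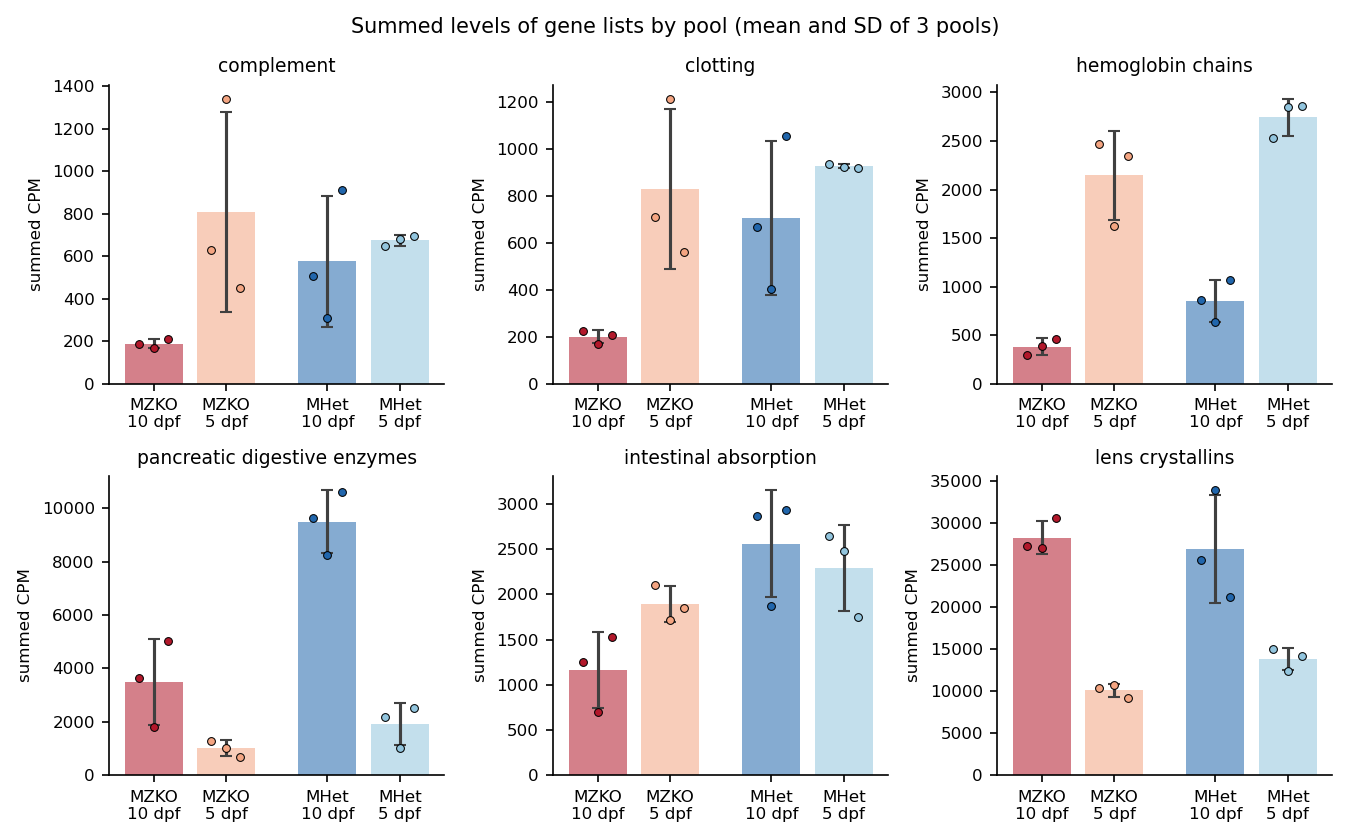
Summed CPM per pool (y axis, linear from 0) over the complement, clotting, hemoglobin, pancreatic enzyme, intestinal absorption and lens crystallin lists, in MZKO and MHet larvae with 10 dpf left of 5 dpf, points for pools and bars for means with error bars of 1 SD (n = 3). In MZKO larvae the complement, clotting and hemoglobin sums at 10 dpf lay below all 5 dpf pools, and the pancreatic and crystallin sums lay above them.

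The gut went the other way from the pancreas in MZKO larvae. Of 32 genes of intestinal absorption 13 fell, with medians of -1.39 in MZKO and -0.0044 in MHet larvae, where 2 fell. The gut transcription factor gene *cdx1b* was at 2.48, 1.37 and 3.20 CPM in the MZKO 10 dpf pools, against 10.8, 9.00 and 9.81 CPM in the MZKO 5 dpf pools, a log2 fold change of -2.06 ± 0.28 (SE, adjusted p = 3.7e-05). It was at 8.20, 6.05 and 12.3 CPM in the MHet 10 dpf pools, against 6.75, 6.64 and 4.77 CPM in the MHet 5 dpf pools, with overlap, and the difference in age change was -2.60 ± 0.39 (SE, adjusted p = 0.0012). The cadherin gene *cdh17*, on the sides of gut epithelial cells, was at 36.5, 28.7 and 38.1 CPM in MZKO larvae at 10 dpf, against 109.6, 99.4 and 101 CPM in MZKO larvae at 5 dpf (log2 fold change -1.58 ± 0.19 SE, adjusted p = 5.2e-05). The amino acid transporter gene *slc6a19a.1* was at 4.02, 4.41 and 3.67 CPM in the MZKO 10 dpf pools, against 16.5, 10.4 and 12.3 CPM in the MZKO 5 dpf pools (log2 fold change -1.69 ± 0.29 SE, adjusted p = 0.00036). *fabp2*, which carries fatty acids in enterocytes, was at 256, 127 and 320.4 CPM in MZKO larvae at 10 dpf, against 227, 197 and 206 CPM in MZKO larvae at 5 dpf, with the ages overlapping. Without MZKO 10 dpf pool 1, 7 genes of the list were called lower. In the difference between genotypes 2 of the 32 were called lower by edgeR and 7 were called by DESeq2, and 18 had an unadjusted p under 0.05.

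Genes of sugar metabolism fell in part. Of 10 genes that make glucose 5 fell in MZKO larvae, and of 35 glycolytic genes 8 fell. The medians were -1.45 and -0.34 in MZKO, against -0.12 and -0.24 in MHet larvae, where 2 and 4 fell. In MZKO larvae 13 glycolytic genes had a log2 fold change above 0 and 22 below. The difference between genotypes was called lower in 1 and 2 genes of these lists by edgeR and called in 5 and 3 by DESeq2. An unadjusted p under 0.05 was seen in 8 and 12. The glucose-6-phosphate transporter gene *slc37a4a* was at 2.35, 1.66 and 2.67 CPM in the MZKO 10 dpf pools, against 15.7, 17.2 and 15.9 CPM in the MZKO 5 dpf pools, a log2 fold change of -2.86 ± 0.30 (SE, adjusted p = 8.7e-06). The pyruvate carboxylase gene *pcxb* was at 5.74, 5.44 and 5.87 CPM in MZKO larvae at 10 dpf, against 37.9, 32.3 and 54.7 CPM in MZKO larvae at 5 dpf (log2 fold change -2.87 ± 0.31 SE, adjusted p = 5e-05). Glucokinase (*gck*), the glucose sensing hexokinase of liver and pancreas, showed the largest fall of the glycolytic list, at 0.497, 0.343 and 0.839 CPM in the MZKO 10 dpf pools, against 10.1, 20.1 and 27.1 CPM in the MZKO 5 dpf pools, a log2 fold change of -5.07 ± 0.52 (SE, adjusted p = 3.3e-05), and did so in MHet larvae too (log2 fold change -5.46 ± 0.53 SE, adjusted p = 3.6e-05). The pyruvate kinase gene *pkmb* was at 118, 150.3 and 161 CPM in MZKO larvae at 10 dpf, against 423, 396 and 465 CPM in MZKO larvae at 5 dpf (log2 fold change -1.58 ± 0.11 SE, adjusted p = 4e-08), and the hexokinase gene *hkdc1* at 2.39, 2.29 and 3.36 CPM in the MZKO 10 dpf pools, against 16.3, 20.2 and 22.1 CPM in the MZKO 5 dpf pools (log2 fold change -2.86 ± 0.23 SE, adjusted p = 2.4e-07). No MZKO pool at 10 dpf reached one at 5 dpf in these genes. The log2 fold changes in MHet larvae were -0.83 for *pkmb* and -1.30 for *hkdc1*.

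Cholesterol synthesis rose in MZKO larvae, with 16 of 21 genes higher and a median of 1.21. In MHet larvae 18 rose, with a median of 1.87. The gene of the rate-limiting reductase, *hmgcra*, was at 76.0, 113 and 119 CPM in MZKO larvae at 10 dpf, against 23.0, 24.1 and 24.4 CPM in MZKO larvae at 5 dpf, a log2 fold change of 2.10 ± 0.17 (SE, adjusted p = 8.1e-07). It was at 211, 142 and 185 CPM in MHet larvae at 10 dpf, against 23.2, 24.8 and 21.1 CPM in MHet larvae at 5 dpf (log2 fold change 2.96 ± 0.17 SE, adjusted p = 6.9e-08), and the difference of -0.86 ± 0.23 (SE, adjusted p = 0.03) missed the threshold but passed it without MHet 10 dpf pool 2 (adjusted p = 0.0058). The squalene epoxidase gene *sqlea* was at 12.5, 32.5 and 28.3 CPM in the MZKO 10 dpf pools, against 3.30, 3.14 and 3.86 CPM in the MZKO 5 dpf pools (log2 fold change 2.83 ± 0.32 SE, adjusted p = 5.5e-05). In both of these genes, and in *ebp* at 21.6, 46.9 and 43.1 CPM in MZKO larvae at 10 dpf, against 5.67, 6.32 and 6.15 CPM in MZKO larvae at 5 dpf, MZKO pool 1 was the lowest of the 10 dpf pools. The isomerase gene *idi1* of the mevalonate pathway differed between genotypes by -1.44 ± 0.16 (SE, adjusted p = 0.00016). It was at 74.1, 87.0 and 77.4 CPM in the MZKO 10 dpf pools, against 52.7, 60.6 and 63.5 CPM in the MZKO 5 dpf pools, and at 126, 111 and 151 CPM in the MHet 10 dpf pools, against 34.0, 33.3 and 39.0 CPM in the MHet 5 dpf pools.

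Enzymes of glycine, serine and one-carbon use fell in 12 of 26 genes, with medians of -0.83 in MZKO and -0.27 in MHet larvae. In the difference between genotypes edgeR called none of these genes and DESeq2 called 4, and 14 had an unadjusted p under 0.05. The glycine methyltransferase gene *gnmt* was at 11.0, 11.1 and 10.9 CPM in MZKO larvae at 10 dpf, against 27.0, 29.0 and 27.7 CPM in MZKO larvae at 5 dpf (log2 fold change -1.34 ± 0.16 SE, adjusted p = 7.2e-06). Among 48 cytochrome P450 genes of families that oxidize drugs, steroids and fatty acids, 21 fell, with medians of -1.18 in MZKO and -0.46 in MHet larvae. The difference was called higher in 1 and lower in 1 of them by edgeR and called in 9 by DESeq2, and 19 had an unadjusted p under 0.05. *cyp2y3* was at 19.1, 17.9 and 27.7 CPM in the MZKO 10 dpf pools, against 96.4, 87.7 and 95.7 CPM in the MZKO 5 dpf pools (log2 fold change -2.11 ± 0.24 SE, adjusted p = 5.2e-05). The apolipoproteins, which carry lipid out of yolk, gut and liver, had a median of -0.40 in MZKO and 0.32 in MHet larvae, with *apoa2* the one called lower at 248, 125 and 304 CPM in MZKO larvae at 10 dpf, against 920.3, 1193 and 731 CPM in MZKO larvae at 5 dpf (log2 fold change -2.07 ± 0.38 SE, adjusted p = 0.0023). Without MZKO 10 dpf pool 2, 4 apolipoprotein genes were called higher, where none were with it, and without MZKO 5 dpf pool 3 2 were called lower. Of the 18 tested apolipoprotein genes none was called in the difference between genotypes by edgeR, against 1 by DESeq2 and 6 at an unadjusted p under 0.05.

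Lens crystallins, the transparent proteins that fill lens fibers, rose. Of 51 crystallin genes 46 rose in MZKO larvae, with medians of 1.62 in MZKO and 1.15 in MHet larvae. Their summed level was 27186, 26972 and 30538 CPM in the MZKO 10 dpf pools, against 10311, 10682 and 9159 CPM in the MZKO 5 dpf pools. The gamma crystallin *crygn1* was at 43.4, 45.1 and 37.7 CPM in the MZKO 10 dpf pools, against 5.91, 5.35 and 4.57 CPM in the MZKO 5 dpf pools, a log2 fold change of 2.99 ± 0.19 (SE, adjusted p = 3.4e-08). It was at 31.7, 35.5 and 19.0 CPM in MHet larvae at 10 dpf, against 7.11, 6.83 and 7.03 CPM in MHet larvae at 5 dpf (log2 fold change 2.04 ± 0.18 SE, adjusted p = 1.2e-06), with no overlap between the ages of either genotype. Many crystallins are near-identical copies in tandem, so single members are uncertain while the summed level is less so.

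Cone photoreceptors, for daylight and color, rose in 10 of 25 genes and fell in 2, whereas of 18 rod genes 1 fell. The cone phosphodiesterase subunit gene *pde6ha* was at 2102, 1830.5 and 2199.8 CPM in MZKO larvae at 10 dpf, against 806, 771 and 578 CPM in MZKO larvae at 5 dpf, a log2 fold change of 1.51 ± 0.13 (SE, adjusted p = 2.1e-07). It was at 1666, 1961 and 1614 CPM in the MHet 10 dpf pools, against 1548, 1396 and 1385 CPM in the MHet 5 dpf pools, and the age change differed by 1.23 ± 0.18 (SE, adjusted p = 0.00076). At 5 dpf the MZKO pools were the lowest of the 4 groups in this gene. The retinal guanylate cyclase gene *gucy2d* was at 189, 113 and 160.5 CPM in the MZKO 10 dpf pools, against 69.5, 67.5 and 61.0 CPM in the MZKO 5 dpf pools (log2 fold change 1.22 ± 0.14 SE, adjusted p = 9.8e-06), with a rise in MHet larvae too (log2 fold change 1.37 ± 0.14 SE, adjusted p = 5.4e-06). The red cone opsin *opn1lw1* fell, at 9.08, 4.75 and 10.5 CPM in MZKO larvae at 10 dpf, against 24.4, 26.7 and 18.9 CPM in MZKO larvae at 5 dpf (log2 fold change -1.52 ± 0.21 SE, adjusted p = 6.1e-05), and rhodopsin (*rho*), the rod pigment, was not called, at 1207, 1082 and 1641 CPM in the MZKO 10 dpf pools, against 1779, 1888 and 1647 CPM in the MZKO 5 dpf pools (log2 fold change -0.44 ± 0.14 SE, adjusted p = 0.016).

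In the nervous system, the myelin list had 5 higher and 3 lower of 17 genes in MZKO larvae. Over the list 8 genes had a log2 fold change above 0 and 9 below, with a median of -0.077. Among those called higher, *plp1b* was at 48.9, 48.9 and 49.6 CPM in MZKO larvae at 10 dpf, against 25.3, 24.3 and 17.8 CPM in MZKO larvae at 5 dpf (log2 fold change 1.13 ± 0.13 SE, adjusted p = 3.8e-06) and *mbpa* at 151, 142 and 156 CPM in the MZKO 10 dpf pools, against 85.2, 81.0 and 81.8 CPM in the MZKO 5 dpf pools (log2 fold change 0.86 ± 0.12 SE, adjusted p = 2e-05), with log2 fold changes of 0.80 and 0.93 in MHet larvae. Both genes of myelin lipid synthesis among the called, *fa2h* and *ugt8* (log2 fold change -0.84 ± 0.15 SE, adjusted p = 0.00032), fell. Since whole larvae were sequenced, the tissue in which they fell cannot be told. The hydroxylase gene *fa2h* was at 15.1, 13.3 and 18.0 CPM in MZKO larvae at 10 dpf, against 47.1, 45.6 and 51.0 CPM in MZKO larvae at 5 dpf, a log2 fold change of -1.63 ± 0.21 (SE, adjusted p = 7.7e-05). It was at 45.5, 26.4 and 53.0 CPM in MHet larvae at 10 dpf, against 31.7, 36.7 and 30.3 CPM in MHet larvae at 5 dpf, the MHet pools at 10 dpf being spread widely, and the difference in age change was -1.96 ± 0.29 (SE, adjusted p = 0.0025), a call lost without MHet 5 dpf pool 1 (log2 fold change -1.94, adjusted p = 0.011). Synapse genes rose in 5 of 29 cases, among them *vamp1*, of the vesicle fusion machinery, at 149.9, 134 and 157 CPM in the MZKO 10 dpf pools, against 78.7, 73.1 and 80.3 CPM in the MZKO 5 dpf pools (log2 fold change 0.93 ± 0.10 SE, adjusted p = 3.3e-06) and the GABA receptor subunit gene *gabra6a* at 36.7, 27.2 and 43.1 CPM in MZKO larvae at 10 dpf, against 15.9, 14.3 and 14.5 CPM in MZKO larvae at 5 dpf (log2 fold change 1.26 ± 0.15 SE, adjusted p = 5.3e-06). The count was between 3 and 6 with each MZKO pool left out, lowest without MZKO 10 dpf pool 1. Of 24 neurogenesis genes 1 was called, higher, in MZKO larvae, against 1 higher and 4 lower in MHet larvae. None of these was called in the difference by edgeR or DESeq2, and 11 had an unadjusted p under 0.05.

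Hormone genes of brain, pituitary and pancreas rose in 7 of 23 cases. Neuropeptide Y (*npy*), which drives feeding, was at 12.4, 10.8 and 12.1 CPM in the MZKO 10 dpf pools, against 5.19, 4.94 and 5.03 CPM in the MZKO 5 dpf pools, a log2 fold change of 1.22 ± 0.15 (SE, adjusted p = 7.9e-06), and *cart2*, a feeding brake, at 10.7, 10.2 and 13.8 CPM in MZKO larvae at 10 dpf, against 3.01, 4.01 and 4.62 CPM in MZKO larvae at 5 dpf (log2 fold change 1.58 ± 0.20 SE, adjusted p = 1e-05). Both stood higher in every 10 dpf pool than in any 5 dpf pool. In the growth factor and thyroid list 2 rose and 7 fell of 24, where 7.62% and 11.2% of all tested genes did. The growth hormone receptor gene *ghra* was at 14.1, 14.9 and 11.7 CPM in the MZKO 10 dpf pools, against 33.0, 28.3 and 28.6 CPM in the MZKO 5 dpf pools (log2 fold change -1.14 ± 0.12 SE, adjusted p = 1.7e-06), and the IGF binding protein gene *igfbp2a* at 9.84, 8.47 and 13.1 CPM in MZKO larvae at 10 dpf, against 28.3, 25.3 and 19.5 CPM in MZKO larvae at 5 dpf (log2 fold change -1.22 ± 0.18 SE, adjusted p = 8.3e-05). The thyroid hormone receptor gene *thrb* rose at 126, 89.6 and 134 CPM in the MZKO 10 dpf pools, against 62.8, 65.2 and 57.1 CPM in the MZKO 5 dpf pools (log2 fold change 0.92 ± 0.13 SE, adjusted p = 2.6e-05).

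Skin and pigment genes fell in part. Of 32 genes of fin fold and skin 11 fell in MZKO larvae. The keratin gene *cyt1l* was at 290.3, 341 and 474 CPM in MZKO larvae at 10 dpf, against 2389, 1777 and 2176 CPM in MZKO larvae at 5 dpf, a log2 fold change of -2.52 ± 0.16 (SE, adjusted p = 2e-08), and fell in MHet larvae too (log2 fold change -2.25 ± 0.16 SE, adjusted p = 6.1e-08). The keratin gene *krt4* of the outer skin layer was at 1683, 1972 and 2828 CPM in the MZKO 10 dpf pools, against 6736, 5897 and 6641 CPM in the MZKO 5 dpf pools (log2 fold change -1.57 ± 0.16 SE, adjusted p = 1.2e-06). MZKO pool 3 was the highest of the 10 dpf pools in both. Among 26 pigment genes 11 fell in MZKO, against 3 in MHet larvae, where 3 rose. In the difference 3 pigment genes were called lower by edgeR and 5 were called by DESeq2, and 13 had an unadjusted p under 0.05. The melanosome transporter gene *oca2* was at 9.44, 7.33 and 6.45 CPM in MZKO larvae at 10 dpf, against 18.8, 19.6 and 17.0 CPM in MZKO larvae at 5 dpf, a log2 fold change of -1.25 ± 0.15 (SE, adjusted p = 4.8e-06). It was at 12.5, 12.1 and 13.2 CPM in the MHet 10 dpf pools, against 9.81, 12.2 and 11.5 CPM in the MHet 5 dpf pools, with overlap, and the difference in age change was -1.42 ± 0.21 (SE, adjusted p = 0.00073).

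Ionocytes, the ion pumping cells of larval skin, had 17 lower and 3 higher genes of 32 in MZKO and 11 lower and 4 higher in MHet larvae. The calcium channel gene *trpv6* was at 1.81, 2.35 and 3.30 CPM in the MZKO 10 dpf pools, against 24.8, 28.9 and 30.7 CPM in the MZKO 5 dpf pools, a log2 fold change of -3.51 ± 0.30 (SE, adjusted p = 2.6e-06). It was 11.4-fold lower at 10 dpf, with no overlap. The carbonic anhydrase gene *ca2* was at 153, 149 and 159.8 CPM in MZKO larvae at 10 dpf, against 290.3, 310.2 and 275 CPM in MZKO larvae at 5 dpf (log2 fold change -0.92 ± 0.089 SE, adjusted p = 7.5e-07), with a difference between genotypes of -0.89 ± 0.13 (SE, adjusted p = 0.00062). The ammonia transporter gene *rhcga* rose, at 64.7, 45.4 and 45.3 CPM in the MZKO 10 dpf pools, against 5.57, 6.32 and 7.83 CPM in the MZKO 5 dpf pools (log2 fold change 2.98 ± 0.21 SE, adjusted p = 2.2e-07), and its relative *rhcgl1* was at 77.1, 76.1 and 111 CPM in MZKO larvae at 10 dpf, against 13.5, 11.3 and 14.6 CPM in MZKO larvae at 5 dpf (log2 fold change 2.74 ± 0.21 SE, adjusted p = 1.5e-06). MHet larvae had the same directions in *trpv6* (log2 fold change -2.87), *rhcga* (3.50) and *rhcgl1* (1.82).

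Of 17 cartilage genes 4 fell in MZKO larvae, among them the chondrocyte regulator *sox9b* at 15.4, 19.1 and 18.2 CPM in the MZKO 10 dpf pools, against 32.7, 35.8 and 31.3 CPM in the MZKO 5 dpf pools (log2 fold change -0.92 ± 0.11 SE, adjusted p = 4.3e-06) and the aggrecan gene *acanb* at 5.42, 10.6 and 7.08 CPM in MZKO larvae at 10 dpf, against 21.2, 17.8 and 20.5 CPM in MZKO larvae at 5 dpf (log2 fold change -1.37 ± 0.24 SE, adjusted p = 0.00034). Over the cartilage list 7 genes had a log2 fold change above 0 and 10 below, with a median of -0.058 in MZKO larvae. In MHet larvae 2 cartilage genes rose and 1 fell, with a median of 0.32. The difference between genotypes was called lower in 2 of them by edgeR and called in 6 by DESeq2, and 8 had an unadjusted p under 0.05. Of 21 bone genes 3 fell, a share near the 11.2% of all tested genes, and 8 had a log2 fold change above 0. The phosphatase gene *phospho1*, which starts bone mineralization, was at 2.89, 2.46 and 4.04 CPM in the MZKO 10 dpf pools, against 9.99, 9.46 and 13.5 CPM in the MZKO 5 dpf pools (log2 fold change -1.81 ± 0.20 SE, adjusted p = 2.4e-06), with a fall in MHet larvae too (log2 fold change -2.09 ± 0.20 SE, adjusted p = 1e-06). Starmaker (*stm*), a zebrafish otolith protein gene, was at 105, 96.5 and 74.7 CPM in MZKO larvae at 10 dpf, against 279.6, 272 and 305 CPM in MZKO larvae at 5 dpf (log2 fold change -1.63 ± 0.11 SE, adjusted p = 1.8e-08).

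Genes of antigen presentation and interferon response rose in 13 of 21 cases and fell in 1, with medians of 1.64 in MZKO and 1.20 in MHet larvae. Beta 2 microglobulin (*b2m*), the light chain of MHC class I, was at 15.7, 15.4 and 18.4 CPM in the MZKO 10 dpf pools, against 1.79, 2.08 and 1.17 CPM in the MZKO 5 dpf pools, a log2 fold change of 3.28 ± 0.22 (SE, adjusted p = 1.6e-08). It was 9.74-fold higher at 10 dpf, with no overlap. The class I gene *mhc1zba* was at 98.9, 112 and 120.0 CPM in MZKO larvae at 10 dpf, against 36.1, 35.0 and 35.2 CPM in MZKO larvae at 5 dpf (log2 fold change 1.64 ± 0.10 SE, adjusted p = 9.2e-09). Both rose in MHet larvae as well, by log2 fold changes of 2.86 and 2.00. The feedback inhibitor gene *socs1a* was at 11.3, 10.6 and 5.82 CPM in the MZKO 10 dpf pools, against 1.70, 1.98 and 2.80 CPM in the MZKO 5 dpf pools (log2 fold change 2.10 ± 0.28 SE, adjusted p = 2e-05). The one that fell, the class II gene *mhc2b*, was at 4.02, 2.00 and 3.30 CPM in MZKO larvae at 10 dpf, against 6.45, 8.72 and 7.88 CPM in MZKO larvae at 5 dpf (log2 fold change -1.29 ± 0.23 SE, adjusted p = 0.00028). Without MZKO 10 dpf pool 2, 2 genes of the list were called lower.

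Of 6 jacalin domain lectins, a family of sugar binding proteins, 1 was called higher and 2 lower. *jac8* had the most counts, at 106, 109 and 75.5 CPM in the MZKO 10 dpf pools, against 52.6, 35.8 and 38.4 CPM in the MZKO 5 dpf pools (log2 fold change 1.20 ± 0.32 SE, adjusted p = 0.014), and was not called. It stood far lower in the siblings at both ages, at 5.06, 9.30 and 3.47 CPM in MHet larvae at 10 dpf, against 0.311, 0.792 and 1.27 CPM in MHet larvae at 5 dpf. *jac9* was at 57.7, 51.9 and 41.7 CPM in MZKO larvae at 10 dpf, against 45.0, 31.5 and 37.3 CPM in MZKO larvae at 5 dpf, and at 1.07, 1.74 and 1.80 CPM in the MHet 10 dpf pools, against 0.622, 0.248 and 0.330 CPM in the MHet 5 dpf pools. *jac6*, called higher, had a log2 fold change of 1.21 ± 0.28 (SE, adjusted p = 0.0024), a call lost without MZKO 10 dpf pool 1 (log2 fold change 1.11, adjusted p = 0.011), MZKO 5 dpf pool 1 (log2 fold change 1.14, adjusted p = 0.016) and MZKO 5 dpf pool 2 (log2 fold change 1.06, adjusted p = 0.017). *jac10* was at 0.406, 0.458 and 0.472 CPM in the MZKO 10 dpf pools, against 6.35, 3.32 and 3.81 CPM in the MZKO 5 dpf pools (log2 fold change -3.32 ± 0.42 SE, adjusted p = 1e-05). *jac1* was at 0 in each 10 dpf pool and at a mean of 1.11 CPM at 5 dpf, at least 6.46-fold lower at 10 dpf against the floor of 3 counts in a library, and its call was lost with any MZKO pool left out. *jac2* was at 1.54, 1.20 and 1.73 CPM in MZKO larvae at 10 dpf, against 0.679, 0.323 and 0.407 CPM in MZKO larvae at 5 dpf (log2 fold change 1.66 ± 0.54 SE, adjusted p = 0.019). The close copies in this family make the split of reads between them uncertain.

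Cytosolic ribosomal proteins, which build the ribosome, rose in 46 of 81 cases, with a summed level of 104249, 92265 and 99653 CPM in the MZKO 10 dpf pools, against 61696, 63123 and 59712 CPM in the MZKO 5 dpf pools. *rpl29* was at 773, 683 and 758 CPM in the MZKO 10 dpf pools, against 270.3, 272 and 201 CPM in the MZKO 5 dpf pools (log2 fold change 1.58 ± 0.12 SE, adjusted p = 8.7e-08), and the median of the list was 0.76 in MZKO and 0.54 in MHet larvae. Proteasome genes rose in 12 of 43 cases and fell in 1, with a median of 0.47 in MZKO and -0.037 in MHet larvae. The catalytic subunit gene *psmb10* of the immunoproteasome was at 6.46, 7.50 and 6.82 CPM in MZKO larvae at 10 dpf, against 1.36, 2.35 and 1.93 CPM in MZKO larvae at 5 dpf (log2 fold change 1.87 ± 0.24 SE, adjusted p = 1.2e-05). The core subunit gene *psma4* was at 96.9, 111 and 89.2 CPM in the MZKO 10 dpf pools, against 57.0, 62.7 and 53.5 CPM in the MZKO 5 dpf pools (log2 fold change 0.78 ± 0.098 SE, adjusted p = 9.5e-06), a call lost without MZKO 10 dpf pool 2 (log2 fold change 0.69, adjusted p = 7.6e-05). Without MZKO 10 dpf pool 2, 5 proteasome genes were called higher, and 17 without MZKO 10 dpf pool 3. The difference between genotypes was called higher in 3 of the 43 by edgeR and called in 5 by DESeq2, and 28 had an unadjusted p under 0.05.

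Mitosis genes fell in both genotypes, 20 of 35 in MZKO and 26 in MHet larvae. The spindle motor gene *kif11* was at 7.95, 9.56 and 12.6 CPM in MZKO larvae at 10 dpf, against 29.2, 24.6 and 30.4 CPM in MZKO larvae at 5 dpf, a log2 fold change of -1.49 ± 0.15 (SE, adjusted p = 1.3e-06), and *plk1*, a mitotic kinase gene, at 6.46, 8.70 and 10.4 CPM in the MZKO 10 dpf pools, against 17.9, 16.7 and 21.9 CPM in the MZKO 5 dpf pools (log2 fold change -1.15 ± 0.17 SE, adjusted p = 3.8e-05). In the difference between genotypes edgeR called none of them, DESeq2 called 1, and 6 had an unadjusted p under 0.05. Of 40 DNA replication genes 2 rose in MZKO, where 7.62% of all tested genes did, against 9 in MHet larvae. The MZKO count was between 0 and 10 with each MZKO pool left out, highest without MZKO 10 dpf pool 1 and 0 without MZKO 10 dpf pool 3 or MZKO 5 dpf pool 1. The median of the replication list was 0.28 in MZKO and 0.34 in MHet larvae, with 33 genes above 0 in each. None was called in the difference by edgeR or DESeq2, and 6 had an unadjusted p under 0.05. Of 44 heat shock genes, the chaperones of protein folding, 7 rose and 3 fell in MZKO larvae, where 7.62% and 11.2% of all tested genes did. In MHet larvae 16 heat shock genes were higher and 0 lower. The difference between genotypes was called lower in 1 of the 44 by edgeR and called in 3 by DESeq2, and 20 heat shock genes had an unadjusted p under 0.05. Their summed level overlapped between the ages, at 7887, 7193 and 6903 CPM in the MZKO 10 dpf pools, against 7112, 7691 and 7585 CPM in the MZKO 5 dpf pools. The count called lower was 1 without MZKO 10 dpf pool 1 or 3 or MZKO 5 dpf pool 1 or 3. *hsp90aa1.2* was at 203, 181 and 175 CPM in MZKO larvae at 10 dpf, against 73.7, 88.3 and 79.6 CPM in MZKO larvae at 5 dpf (log2 fold change 1.21 ± 0.099 SE, adjusted p = 1.3e-07). Of 12 mitochondrially encoded genes 1 rose in MZKO larvae, a share near that of all tested genes, with a median of 0.36. In MHet larvae 5 rose, with a median of 0.67. None was called in the difference between genotypes by edgeR or DESeq2, and 3 had an unadjusted p under 0.05. The one called in MZKO larvae, *mt-nd3*, was at 592, 498 and 652 CPM in the MZKO 10 dpf pools, against 321, 319 and 220.0 CPM in the MZKO 5 dpf pools (log2 fold change 1.02 ± 0.15 SE, adjusted p = 9.6e-05). Without MZKO 5 dpf pool 2, 3 mitochondrially encoded genes were called.

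The circadian clock list moved in both directions in both genotypes, and *nr1d1* of this list had the smallest p of the genes named here that rose. It had 18 higher and 8 lower of 43 genes in MZKO, and 17 and 10 in MHet larvae. The repressor gene *nr1d1* was at 197, 194 and 168 CPM in MZKO larvae at 10 dpf, against 16.4, 13.8 and 15.5 CPM in MZKO larvae at 5 dpf, a log2 fold change of 3.61 ± 0.14 (SE, adjusted p = 1.8e-11). It was 12.2-fold higher at 10 dpf. The period gene *per1b* was at 175, 165 and 132 CPM in the MZKO 10 dpf pools, against 32.4, 31.5 and 33.7 CPM in the MZKO 5 dpf pools (log2 fold change 2.27 ± 0.11 SE, adjusted p = 5.1e-10) and *per1a* at 50.4, 54.7 and 54.5 CPM in MZKO larvae at 10 dpf, against 8.19, 6.18 and 6.05 CPM in MZKO larvae at 5 dpf (log2 fold change 2.97 ± 0.15 SE, adjusted p = 5.1e-10). Among the genes called lower were some that encode activators of the loop: *arntl2* was at 7.99, 8.07 and 5.56 CPM in the MZKO 10 dpf pools, against 18.7, 20.6 and 24.6 CPM in the MZKO 5 dpf pools (log2 fold change -1.56 ± 0.15 SE, adjusted p = 7.4e-07) and *rorcb* at 45.0, 47.2 and 42.3 CPM in MZKO larvae at 10 dpf, against 150.1, 142 and 138 CPM in MZKO larvae at 5 dpf (log2 fold change -1.68 ± 0.11 SE, adjusted p = 1.8e-08). *nr1d1* was at 164, 171 and 141 CPM in MHet larvae at 10 dpf, against 23.4, 18.9 and 15.7 CPM in MHet larvae at 5 dpf, with a difference in age change of 0.58 ± 0.18 (SE, adjusted p = 0.044), and no clock gene was called in that test by edgeR or DESeq2, with 9 at an unadjusted p under 0.05. Since these genes cycle within a day and the sampling hour is not given, age, batch and hour cannot be told apart here. Immediate early genes were split, with 6 higher and 8 lower of 32. *junbb* was at 52.1, 61.4 and 48.8 CPM in the MZKO 10 dpf pools, against 127, 146 and 127 CPM in the MZKO 5 dpf pools (log2 fold change -1.30 ± 0.10 SE, adjusted p = 9.6e-08) and *nr4a3* at 40.9, 32.1 and 32.0 CPM in MZKO larvae at 10 dpf, against 8.92, 10.1 and 10.7 CPM in MZKO larvae at 5 dpf (log2 fold change 1.82 ± 0.16 SE, adjusted p = 3.2e-07).

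**Figure D4:**
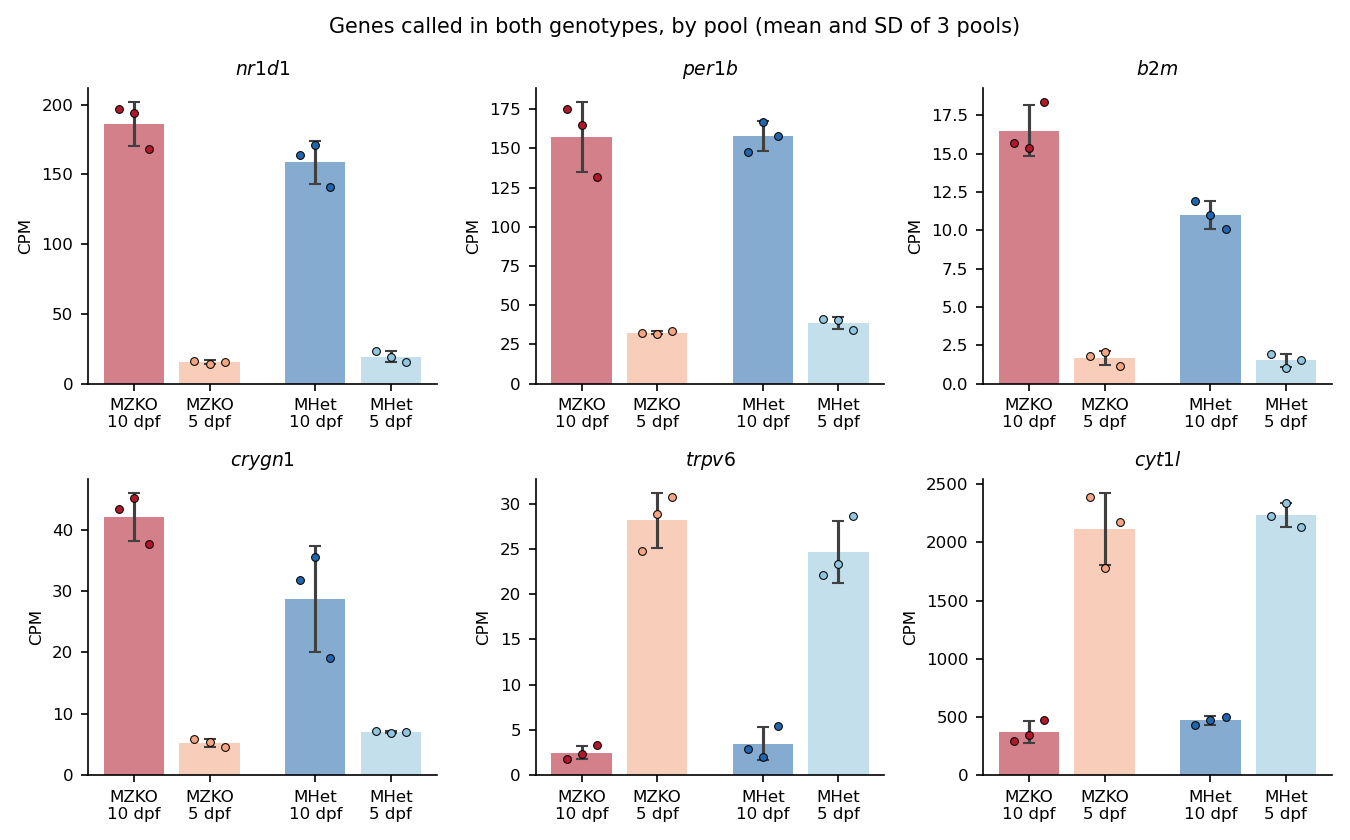
CPM per pool (y axis, linear from 0) of 6 genes whose age change was called in both genotypes, with 10 dpf left of 5 dpf, points for pools and bars for means with error bars of 1 SD (n = 3). In both MZKO and MHet larvae *nr1d1*, *per1b*, *b2m* and *crygn1* stood higher and *trpv6* and *cyt1l* lower in every 10 dpf pool than in any 5 dpf pool.

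The age change differed between MZKO and MHet larvae in 654 genes (2.64% of those tested), 219 (0.885%) with a higher and 435 (1.76%) with a lower value in MZKO. With library sizes alone for scaling they were 326 and 331. With each of the 12 pools left out in turn, between 74 and 389 genes were called higher and between 171 and 765 lower. The lowest counts came without MHet 5 dpf pool 1. The highest came without MHet 10 dpf pool 2. DESeq2 called 462 higher and 893 lower. The genes named next kept their calls with each pool left out.

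Several genes with the smallest p in this test went in opposite directions in the genotypes. The ADP-dependent glucokinase gene *adpgk2* was at 4.56, 5.50 and 6.03 CPM in the MZKO 10 dpf pools, against 25.8, 19.0 and 20.8 CPM in the MZKO 5 dpf pools (log2 fold change -2.03 ± 0.17 SE, adjusted p = 2.3e-07). It was at 8.63, 6.39 and 8.61 CPM in the MHet 10 dpf pools, against 2.75, 3.22 and 2.45 CPM in the MHet 5 dpf pools (log2 fold change 1.48 ± 0.19 SE, adjusted p = 1.7e-05), a difference of -3.51 ± 0.26 (SE, adjusted p = 2.3e-06). The sorting nexin gene *snx6* was at 14.4, 16.1 and 20.4 CPM in MZKO larvae at 10 dpf, against 38.5, 37.1 and 31.0 CPM in MZKO larvae at 5 dpf, and at 12.8, 15.1 and 15.6 CPM in MHet larvae at 10 dpf, against 6.08, 4.61 and 6.51 CPM in MHet larvae at 5 dpf, a difference of -2.40 ± 0.22 (SE, adjusted p = 2.3e-05). *tnks1bp1*, whose product binds tankyrase, was at 54.7, 50.6 and 37.3 CPM in the MZKO 10 dpf pools, against 13.3, 14.2 and 19.2 CPM in the MZKO 5 dpf pools, and at 30.9, 31.4 and 26.5 CPM in the MHet 10 dpf pools, against 64.8, 79.1 and 75.7 CPM in the MHet 5 dpf pools, a difference of 2.92 ± 0.22 (SE, adjusted p = 7.9e-06). In each of these the genotypes were farther apart at 5 dpf than at 10 dpf. The activin receptor gene *acvr2ba* was at 15.8, 15.3 and 12.4 CPM in MZKO larvae at 10 dpf, against 17.5, 13.8 and 20.4 CPM in MZKO larvae at 5 dpf, where the ages overlapped, and at 16.5, 16.9 and 17.2 CPM in MHet larvae at 10 dpf, against 4.89, 4.01 and 3.35 CPM in MHet larvae at 5 dpf, where they did not, a difference of -2.29 ± 0.23 (SE, adjusted p = 6.8e-05). The genes *acin1a* (difference 1.18 on the log2 scale), *clk4a* (1.06), *srpk2* (1.03), *rbm5* (0.95) and *sfswap* (0.99), were among the 10 with the smallest p and a higher value in MZKO.

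**Figure D5:**
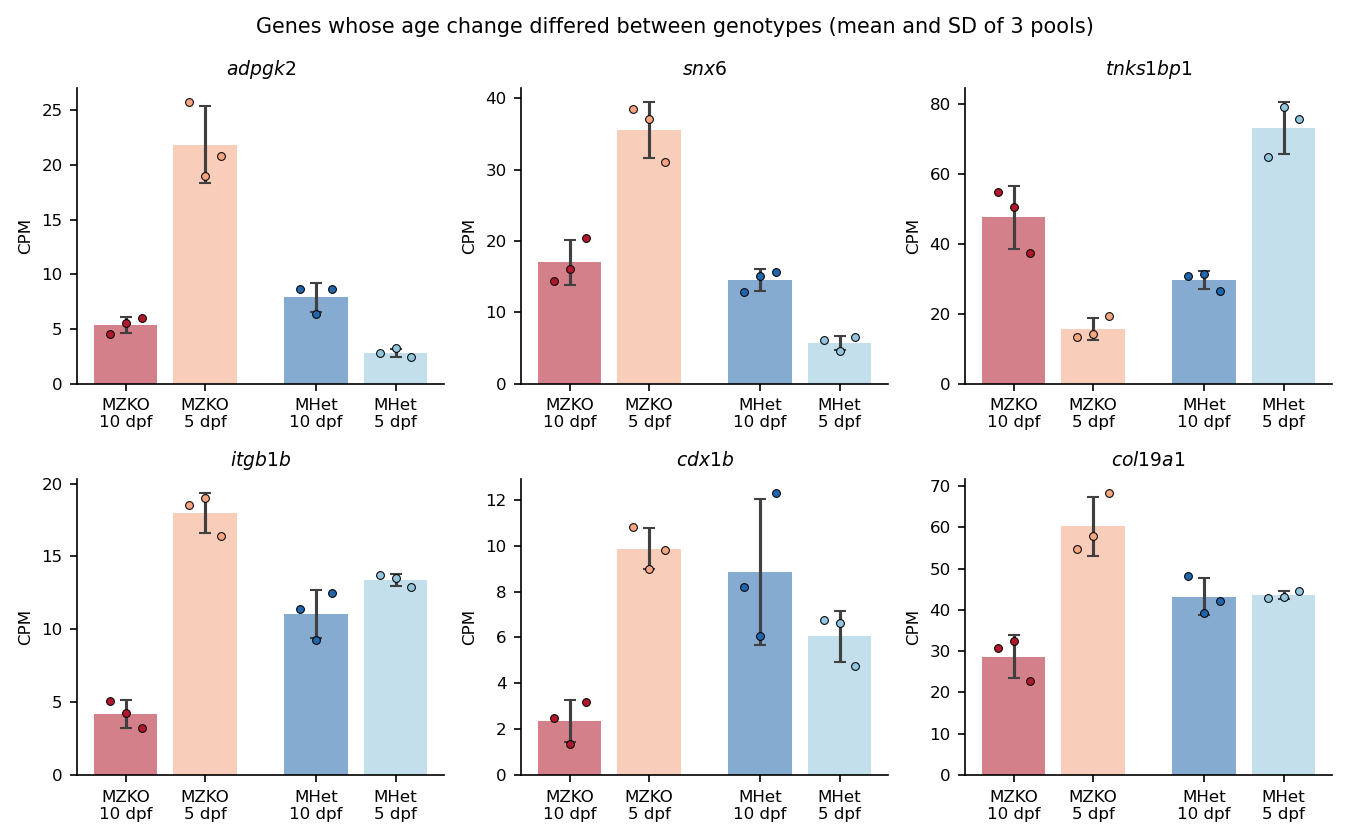
CPM per pool (y axis, linear from 0) of 6 genes whose age change was called as different between MZKO and MHet larvae, with 10 dpf left of 5 dpf, points for pools and bars for means with error bars of 1 SD (n = 3). *adpgk2* and *snx6* fell in MZKO and rose in MHet larvae, *tnks1bp1* did the reverse, and *itgb1b*, *cdx1b* and *col19a1* fell in MZKO larvae and were not called in MHet larvae.

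Genes called with a lower age change in MZKO, 1.76% of all tested genes, included 7 of 29 in the integrin list and 9 of 56 in the collagen list. They also included 10 of 49 other sarcomere genes and 6 of 23 triad genes, and all calls in these lists were in that direction. With each pool left out, the collagen count was between 3 and 15 (lowest without MHet 5 dpf pool 1, MZKO 5 dpf pool 1 or MZKO 5 dpf pool 3, highest without MZKO 10 dpf pool 3). The sarcomere count was between 4 and 13 (lowest without MHet 5 dpf pool 1, highest without MHet 10 dpf pool 2), and the triad count between 2 and 7 (lowest without MHet 10 dpf pool 1). Of the ribosomal proteins none was called in the difference by edgeR or DESeq2, and 17 had an unadjusted p under 0.05.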

How the data were processed

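Total RNA from pools of whole zebrafish larvae was made into polyA-selected, strand-marking libraries and sequenced, the 10 dpf pools in the batch labelled 2 and the 5 dpf pools in the batch labelled 1. The authors trimmed reads (Trim Galore), mapped them (HISAT2, genome GRCz11) and assigned them to genes of the Lawson annotation (featureCounts), and deposited raw counts for 36351 genes in 21 samples. Whether strand was used, and how reads with several matches were handled, is not given in the sources used here. Counting of reads without molecular identifiers means that floors cover counting error only.

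Counts of the 12 MZKO and MHet pools were filtered with filterByExpr and normalized with TMM, and 24738 genes were fitted by group with edgeR's robust quasi-likelihood test. The contrasts were 10 dpf against 5 dpf in each genotype and the difference between these changes. Genes were called at a Benjamini-Hochberg adjusted p under 0.01 and an absolute log2 value over 0.7, SE being the log2 value over the root of F. List counts and medians carry no set test. The procedure was tested on simulated counts. Alternatives were DESeq2, other size factors, filters and thresholds, other sets of pools, a replicate block and each pool left out.

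The genes named were drawn from a set made by a rule. The set held *pomgnt2* and the genes with the smallest p in either direction for the MZKO change and the difference. It also held up to 5 genes with the smallest p and 2 going against the median of each list. All tested members of 5 lists were added. Not every gene of the set is named in the text, so the genes given are a choice from it. The members and the 55 lists were chosen with earlier results of these data known. The replicate pools differed by more than counting error (chi-square per gene 5.52 to 18.9). The labels do not state separate clutches for the pools, so p-values measure the spread between these pools. The other 9 pools served only in 1 alternative.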

Additional observations from a re-analysis of the deposited data

Results flagged for a closer look

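The age change differed between MZKO and MHet larvae, by the test of the difference itself, in 219 genes with a higher and 435 genes with a lower value in MZKO. Among the genes named in the text the differences, MZKO minus MHet on the log2 scale, were 2.92 for *tnks1bp1*, 1.23 for *pde6ha*, 1.18 for *acin1a*, 1.06 for *clk4a*, 1.03 for *srpk2*, 0.99 for *sfswap* and 0.95 for *rbm5*. In muscle, matrix receptors and collagen they were -1.82 for *itgb1b*, -1.58 for *cmya5*, -1.46 for *itga4*, -1.43 for *myom1b*, -1.26 for *trdn*, -1.18 for *myom1a*, -1.14 for *sgcd*, -1.06 for *col19a1*, -0.99 for *cavin1b*, -0.93 for *mef2ca*, -0.89 for *itgb1a* and -0.89 for *bcam*. In other tissues they were -3.51 for *adpgk2*, -2.60 for *cdx1b*, -2.40 for *snx6*, -2.29 for *acvr2ba*, -1.96 for *fa2h*, -1.44 for *idi1*, -1.42 for *oca2* and -0.89 for *ca2*.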

How the results depend on the processing

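Of the genes named for the MZKO age change, 7 of 134 changed their call with 1 pool left out, and no called gene among them changed direction under the alternatives run. With each pool left out in turn, 1575 to 1811 genes were called higher and 2249 to 2579 lower in MZKO larvae, 1330 to 1603 higher and 1294 to 1636 lower in MHet larvae, and 74 to 389 higher and 171 to 765 lower in the difference, where 219 and 435 were called with all pools. Without the fold threshold 3533 genes were higher in MZKO, and 2995 higher and 2853 lower in MHet larvae. In the difference DESeq2 called 462 higher and 893 lower, the fit of all 21 pools called 343 higher, and an adjusted p under 0.05 gave 611 higher and 1171 lower. The causes were not tested. DESeq2 gave no adjusted p to 7054 genes in MZKO, 6413 in MHet larvae and 12824 in the difference.

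The replicate numbers name pools and do not pair them (correlations of the deviations of same-numbered pools between -0.129 and 0.0915). With the replicate number as a replicate block, 1818 genes were called higher and 2678 lower in MZKO larvae, and 158 higher and 306 lower in the difference. With a replicate block within age, 109 and 372 were. Depth limits genes near the floor of 3 counts.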

Other observations

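Some lists hold values not described above. Of 17 genes in the thymus and lymphocyte list, 2 rose and 2 fell in MZKO larvae, where 7.62% and 11.2% of all tested genes did. The summed level of the list was 154, 154 and 154 CPM in the MZKO 10 dpf pools, against 136, 137 and 143 CPM in the MZKO 5 dpf pools. Of those that rose, *cd3eap* (log2 fold change 1.13 ± 0.13 SE, adjusted p = 3.4e-06) is not a gene particular to lymphocytes, and it also entered the summed level. The other was the interleukin 7 receptor gene *il7r* (log2 fold change 1.93 ± 0.44 SE, adjusted p = 0.0021), a call lost without MZKO 10 dpf pool 3 (log2 fold change 1.70, adjusted p = 0.011), MZKO 5 dpf pool 1 (log2 fold change 1.62, adjusted p = 0.016) and MZKO 5 dpf pool 3 (log2 fold change 1.81, adjusted p = 0.012). *rag1*, needed to assemble antigen receptors, was at 0.858, 0.973 and 0.734 CPM in the MZKO 10 dpf pools, against 3.49, 3.18 and 2.54 CPM in the MZKO 5 dpf pools (log2 fold change -1.84 ± 0.31 SE, adjusted p = 0.00015). The thymus chemokine gene *ccl25a* was at 1.35, 1.32 and 3.15 CPM in MZKO larvae at 10 dpf, against 7.61, 6.97 and 8.28 CPM in MZKO larvae at 5 dpf (log2 fold change -1.97 ± 0.34 SE, adjusted p = 0.00026). The germ cell helicase gene *ddx4* was at 0.181, 0.286 and 0.367 CPM in the MZKO 10 dpf pools, against 1.65, 1.34 and 1.98 CPM in the MZKO 5 dpf pools (log2 fold change -2.56 ± 0.39 SE, adjusted p = 6.5e-05), near the floor at 10 dpf. In the 3 genes every 10 dpf pool was below every 5 dpf pool. *ddx4* was the 1 gene called of 6 tested in the germ cell list, where 11.2% of all tested genes fell. Over that list 2 genes had a log2 fold change above 0 and 4 below, with a median of -0.62. In MHet larvae none of the list was called by edgeR or DESeq2, the median was -0.026, and 2 had an unadjusted p under 0.05.

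Of 10 tested fatty acid binding protein genes 2 rose in MZKO larvae, where 7.62% of all tested genes did. Over the list 4 had a log2 fold change above 0 and 6 below, with a median of -0.15. In MHet larvae 2 rose and 1 fell, with a median of 0.36. None was called in the difference between genotypes by edgeR or DESeq2, and 2 had an unadjusted p under 0.05. Those that rose in MZKO larvae were of neural tissue, *fabp7a* at 343, 415 and 602 CPM in MZKO larvae at 10 dpf, against 217, 196 and 238 CPM in MZKO larvae at 5 dpf (log2 fold change 1.06 ± 0.17 SE, adjusted p = 0.00029) and *fabp7b* at 11.4, 15.9 and 13.8 CPM in the MZKO 10 dpf pools, against 6.20, 5.49 and 4.88 CPM in the MZKO 5 dpf pools (log2 fold change 1.31 ± 0.18 SE, adjusted p = 2.3e-05). The deiodinase gene *dio3b*, whose product inactivates thyroid hormone, was at 25.7, 15.4 and 19.3 CPM in MZKO larvae at 10 dpf, against 7.80, 7.47 and 12.0 CPM in MZKO larvae at 5 dpf (log2 fold change 1.16 ± 0.20 SE, adjusted p = 0.00045), with no overlap between the ages.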
